A study of Homo sapiens with 4 samples.

Results

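The claudin genes described here were 10 members of the family, CLDN1, CLDN2, CLDN3, CLDN4, CLDN7, CLDN8, CLDN12, CLDN15, CLDN18 and CLDN23. They were read through every probe set that the platform annotation assigns to exactly 1 of them, which gave 19 of the 54675 probe sets on the array. A further probe set, 243761_at, is annotated to CLDN12 and PTTG1IP2 together and was left out; its levels lay between 4.23 and 4.56. The series holds 4 arrays from colorectal cancer cell lines, 1 array for each of 4 groups named by their titles. HCT116-Vec and HCT116-CDX1 are derived from HCT116, a colorectal carcinoma line, and LS174T-siVec and LS174T-siCDX1 from LS174T, a mucin-secreting colon adenocarcinoma line. The titles were read as an empty vector and introduced CDX1 in HCT116, and as a control and knockdown of CDX1 in LS174T; the labels describe no construct, clone, culture or time. CDX1 is a homeobox transcription factor of intestinal epithelium, and the series was built around its regulation of KRT20, the cytokeratin 20 gene.

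Claudins are small membrane proteins that span the membrane and join neighbouring epithelial cells at tight junctions. Some close the space between cells to ions and solutes, and others, such as claudin-2, form channels through it. The mixture of claudins differs along the crypt and along the gut and sets how leaky the epithelium is; claudin-2 is typical of crypts and of leaky epithelia. In cultured intestinal cells the CLDN2 promoter is known to respond to CDX and HNF1 factors.

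Levels are RMA expression on the log2 scale, on which a difference of 1 is 2-fold. A probe set was taken as measured in a comparison where the brighter of the 2 arrays stood at 6 or more. It is said to have risen or fallen where it was measured and differed by 1 or more. Each group has a single array, so a difference between 2 arrays carries no replicate error and gets no p-value, and the small number of arrays limits precision throughout. The largest difference among 18 bacterial spike-in controls was 0.349 in the HCT116 pair, 0.170 in the LS174T pair and 0.356 between the vector arrays. Such controls are not RNA of the cells, so these values leave out variation from culture and RNA preparation and do not give the full technical error. Array medians were 7.04 to 7.06, and Pearson r over probe sets was 0.988 and 0.989 within the pairs and 0.933 to 0.937 between the lines. In bulk RNA, fewer cells that express a gene and less of its RNA per cell cannot be told apart.

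The labels were checked on CDX1 and KRT20. CDX1 read 8.21 in HCT116-Vec and 8.24 on the array labelled HCT116-CDX1, then 10.46 in LS174T-siVec against 9.06 in LS174T-siCDX1. Its probe set thus fell by 1.40 in LS174T-siCDX1 and differed by 0.02 in the HCT116 pair, so every direction given for HCT116 rests on the label. Which part of the transcript the CDX1 probe set reads was not examined. KRT20 stood at 6.36 in HCT116-Vec, 9.38 on the array labelled HCT116-CDX1, 8.15 in LS174T-siVec and 5.45 in LS174T-siCDX1. The epithelial marker EPCAM, a surface glycoprotein, read 12.82 to 13.24 on the 4 arrays. The listed markers of endothelium, fibroblasts and leukocytes read from 4.25 to 4.34 for LUM, a matrix proteoglycan, up to 8.86 to 9.14 for COL1A1, a collagen. No detection call was used here, so a level does not by itself show whether a gene is expressed.

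The upstream sequences of CLDN2, CLDN1 and CLDN3 are shown because CLDN2 and CLDN1 had the largest differences within a pair among the claudins, and CLDN3 had the largest difference in HCT116. They are the 250 bases before listed transcript starts in the RefSeq-based table of build GRCh38.p14, written 5' to 3' on the strand of the gene. CLDN2 has 2 listed starts, with windows at chrX:106899914-106900163 and chrX:106918110-106918359 on the plus strand. The CLDN1 window is chr3:190322447-190322696 and the CLDN3 window chr7:73770271-73770520, both on the minus strand. Capitals mark TTTAT or its reverse complement ATAAA, the core that CDX proteins recognise; it can overlap a TATA box, TATAAA.
CLDN2 start 1: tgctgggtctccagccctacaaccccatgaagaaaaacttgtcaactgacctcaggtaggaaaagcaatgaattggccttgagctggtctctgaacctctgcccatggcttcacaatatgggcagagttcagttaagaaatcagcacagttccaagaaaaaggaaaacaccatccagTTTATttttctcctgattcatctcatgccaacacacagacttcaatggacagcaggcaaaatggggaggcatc
CLDN2 start 2: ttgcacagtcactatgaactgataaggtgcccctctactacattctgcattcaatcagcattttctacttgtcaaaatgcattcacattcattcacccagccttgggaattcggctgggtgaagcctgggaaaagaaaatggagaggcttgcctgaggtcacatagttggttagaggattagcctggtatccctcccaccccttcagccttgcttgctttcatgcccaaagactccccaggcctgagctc
CLDN1: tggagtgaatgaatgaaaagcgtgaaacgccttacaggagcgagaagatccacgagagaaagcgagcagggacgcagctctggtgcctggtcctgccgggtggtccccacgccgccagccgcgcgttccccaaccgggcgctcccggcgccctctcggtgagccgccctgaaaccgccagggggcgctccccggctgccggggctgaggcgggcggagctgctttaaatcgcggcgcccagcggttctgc
CLDN3: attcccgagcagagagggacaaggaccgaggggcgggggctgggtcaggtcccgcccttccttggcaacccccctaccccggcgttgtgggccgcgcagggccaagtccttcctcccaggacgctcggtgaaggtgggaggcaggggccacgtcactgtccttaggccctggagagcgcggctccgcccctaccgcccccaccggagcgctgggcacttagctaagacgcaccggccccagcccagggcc

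TTTAT occurred once in the window of CLDN2 start 1, beginning 73 bases before the start, and not in the other 3 windows printed. Over the claudins, 11 windows from 8 of the 10 genes were read, and those of CLDN2 start 1 and of CLDN18 start 1 were the 2 with a match. CLDN8 and CLDN23 had no window here. Windows on chromosome 8, where CLDN23 lies, were left out of the claudin counts, and the shares over all windows keep that chromosome. TTTAT, read on both strands, occurs in 32.7% of the 35116 windows of this length in the table. TATAAA was in 0 of the 11 windows and in 10.7% of all. CAGGTG or CACCTG, the E-box that SNAI and ZEB repressors bind, was in 2 of the 11, with 4 matches before CLDN7 start 2 and 1 before CLDN18 start 1, against 17.5% of all windows. The windows also differed in base composition: G and C made up 46.0% and 48.8% of the CLDN2 windows, 68.8% of the CLDN1 window and 71.6% of the CLDN3 window, beside a median of 58.0% over all windows. No CpG lay in the window of CLDN2 start 1. These matches are a description of letters and not of binding, and no binding was measured.

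CLDN2, CLDN3 and CLDN1 had the widest ranges over the 4 arrays, and each was highest in LS174T-siVec. Of the 19 probe sets, 11 read highest in LS174T-siVec, 2 in LS174T-siCDX1, 2 on the array labelled HCT116-CDX1 and 4 in HCT116-Vec. These counts include probe sets under 6 on all arrays, such as 214598_at of CLDN8. They also include narrow ranges, such as 0.18 for 219640_at of CLDN15. The share of all probe sets that read highest on each array was not taken, so the counts are not read as a trait of the claudins. Levels of different probe sets are not compared here, because probes differ in how strongly they bind.

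**Figure D1:**
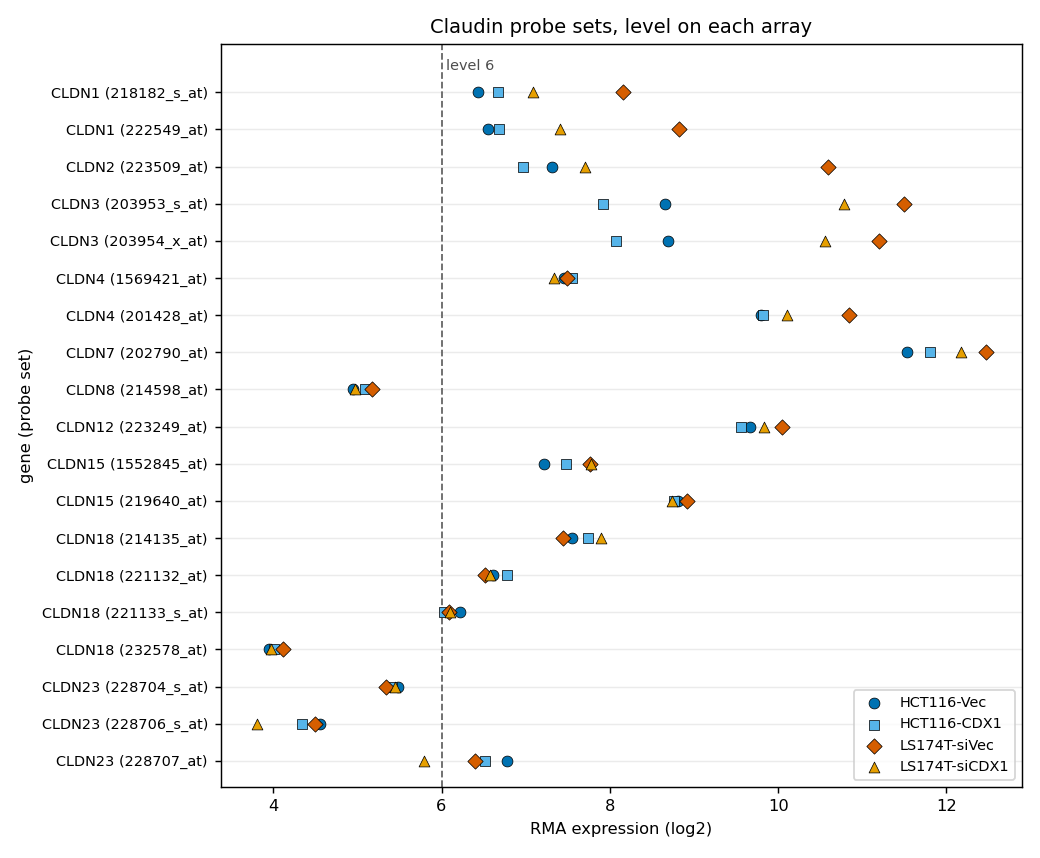
Level of each of the 19 claudin probe sets on each array, with RMA expression in log2 on the horizontal axis, 1 symbol per array and a dashed line at 6. The LS174T-siVec array stands apart to the right for CLDN2 at 10.59 and for CLDN1 at 8.15 and 8.82, while both LS174T arrays lie above both HCT116 arrays for CLDN3.

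Of the pore-forming claudins, CLDN2 encodes a channel for small cations and water. CLDN2, read by 223509_at, stood at 7.31 in HCT116-Vec, 6.97 on the array labelled HCT116-CDX1, 10.59 in LS174T-siVec and 7.70 in LS174T-siCDX1. A single array, LS174T-siVec, was high, and the other 3 lay between 6.97 and 7.70. CLDN2 fell by 2.89 in LS174T-siCDX1, or 7.41-fold, and was the 32nd lowest of 40584 measured probe sets in that pair. How much of the 7.70 that remained is background is not known, and neither is it for the HCT116 readings, so folds of CLDN2 are ratios of readings. After the fall it stood 0.39 above HCT116-Vec. In the HCT116 pair CLDN2 differed by -0.35, which lay inside the central 95% of all measured probe sets, from -0.73 to 0.67. KRT20 differed by 3.03 in the same pair and by -2.70 in LS174T.

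CLDN15, the other cation channel of the gut, showed no change of 2-fold in either pair. By 219640_at it read 8.81 in HCT116-Vec, 8.76 on the array labelled HCT116-CDX1, 8.92 in LS174T-siVec and 8.74 in LS174T-siCDX1. By 1552845_at it read 7.22, 7.48, 7.76 and 7.78 in the same order. Its differences were between -0.18 and 0.26 within the pairs, so the 2 pore-forming genes differed in what they did in LS174T-siCDX1: CLDN2 fell, and CLDN15 stood within 0.18 of its control.

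Among the sealing claudins, CLDN1 fell in LS174T-siCDX1 by both of its probe sets. CLDN1 is needed for the barrier of the skin and is often raised in colorectal cancer. By 222549_at it stood at 6.55 in HCT116-Vec, 6.69 on the array labelled HCT116-CDX1, 8.82 in LS174T-siVec and 7.41 in LS174T-siCDX1. By 218182_s_at it stood at 6.43, 6.67, 8.15 and 7.09 in the same order. Both probe sets put the arrays in 1 order, with LS174T-siVec highest, LS174T-siCDX1 next and the HCT116 arrays lowest and close together. By these probe sets CLDN1 fell by 1.41 (2.66-fold) and fell by 1.07 (2.09-fold), the 197th and 361st lowest of the measured probe sets. In the HCT116 pair CLDN1 differed by 0.13 and 0.24.

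CLDN3, a barrier-forming claudin abundant in the gut, was lower in both modified arrays than in their controls, by less than 2-fold. By 203953_s_at it stood at 8.66 in HCT116-Vec, 7.91 on the array labelled HCT116-CDX1, 11.50 in LS174T-siVec and 10.79 in LS174T-siCDX1. By 203954_x_at it stood at 8.69, 8.08, 11.19 and 10.56. The differences were -0.75 and -0.61 in the HCT116 pair and -0.71 and -0.64 in the LS174T pair. These were the largest claudin differences in HCT116, where 2.32% and 4.29% of measured probe sets lay lower, and 1.92% and 2.33% did in LS174T. At a threshold of 1.5-fold both probe sets were lower in both pairs, as were 4.77% of measured probe sets in HCT116 and 2.74% in LS174T. CDX1 is meant to rise in 1 pair and to fall in the other, so CLDN3 did not follow the labels.

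CLDN4, whose coding gene is the neighbour of CLDN3 on chromosome 7, encodes with CLDN3 a receptor of Clostridium perfringens enterotoxin. By 201428_at CLDN4 stood at 9.80 in HCT116-Vec, 9.82 on the array labelled HCT116-CDX1, 10.85 in LS174T-siVec and 10.10 in LS174T-siCDX1. It differed by -0.74 in the LS174T pair, where 1.78% of measured probe sets lay lower, and by 0.02 in the HCT116 pair. Its other probe set, 1569421_at, read 7.34 to 7.55 on the 4 arrays and differed by -0.16 in LS174T. The neighbouring genes thus read differently in HCT116, where CLDN3 was lower on the modified array and CLDN4 differed by 0.02 and 0.10.

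CLDN7, which also lies along the basolateral membrane of gut epithelium, read 11.53 in HCT116-Vec, 11.80 on the array labelled HCT116-CDX1, 12.47 in LS174T-siVec and 12.17 in LS174T-siCDX1. Its differences were 0.27 and -0.30 within the pairs. CLDN12, a claudin without the usual PDZ-binding end, read 9.67, 9.56, 10.04 and 9.83 in the same order, with differences of -0.11 and -0.21. None of these differences left the central 95% of its pair, which ran from -0.61 to 0.49 in LS174T.

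CLDN8, a barrier claudin of the distal colon, read 4.95 to 5.18 and was measured on no array. CLDN18, the claudin of stomach and lung, has 2 listed starts and 4 probe sets. Its probe set 232578_at read 3.95 to 4.11, 221133_s_at 6.02 to 6.22, 221132_at 6.52 to 6.78 and 214135_at 7.44 to 7.89. The largest CLDN18 difference was 0.45, in the LS174T pair by 214135_at, which went from 7.44 to 7.89; its other 3 probe sets differed by -0.14 to 0.07 there. Of the listed gastric markers 0 of 5 measured changed in HCT116, where GKN2 differed most, by 0.50. In LS174T 1 of 6 fell, the mucin gene MUC6, and 0 rose; the trefoil gene TFF2 went from 7.64 to 7.01. CLDN23 is found in differentiated colon epithelium. By 228707_at it read 6.77 in HCT116-Vec, 6.51 on the array labelled HCT116-CDX1, 6.40 in LS174T-siVec and 5.79 in LS174T-siCDX1, a difference of -0.61 in LS174T. By 228706_s_at it differed by -0.69 there, at levels of 3.81 to 4.55, and 228704_s_at read 5.34 to 5.48. Of the 3 CLDN23 probe sets, 1 was measured.

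**Figure D2:**
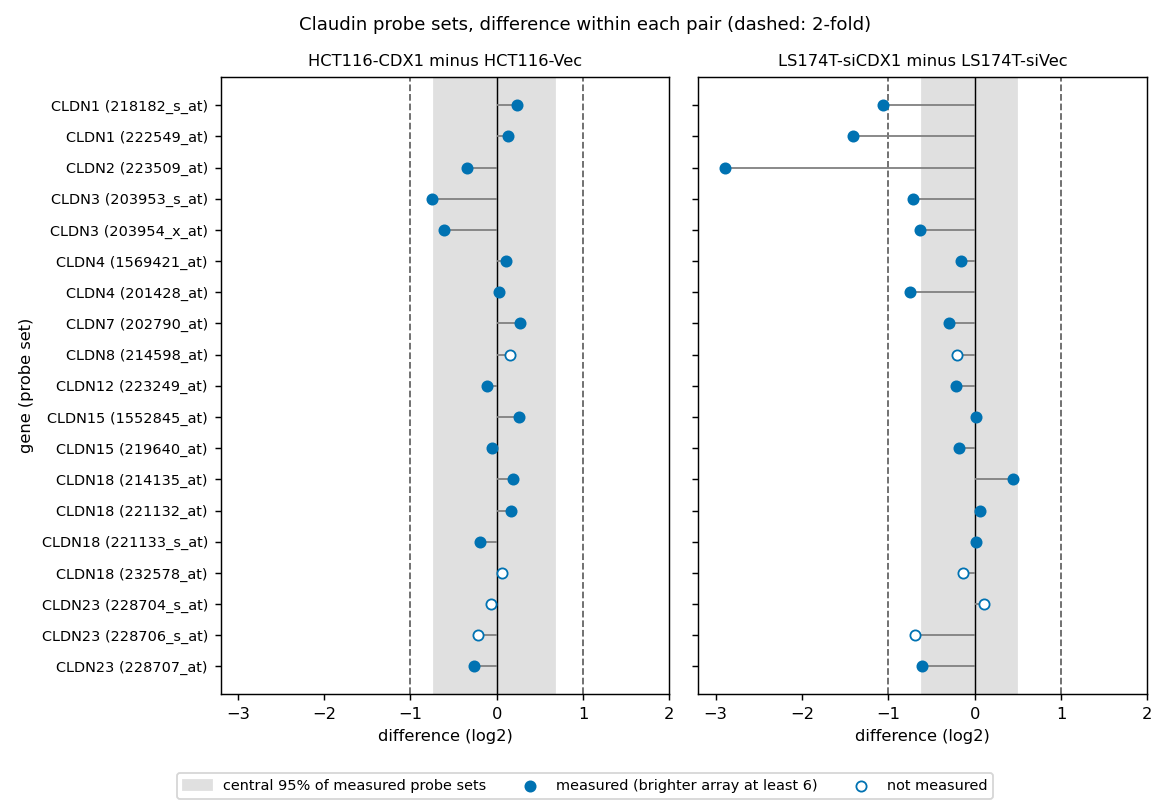
Difference in log2 between the modified array and its control for each claudin probe set, on the left in HCT116 and on the right in LS174T. The grey band is the central 95% of all measured probe sets, dashed lines mark 2-fold and open symbols are probe sets under 6 on both arrays. CLDN2 at -2.89 and CLDN1 at -1.41 and -1.07 pass the dashed line in LS174T and no claudin does in HCT116.

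Counted over probe sets, 15 of the 19 claudin probe sets, from 9 genes, were measured in each pair. The 4 under 6 were those of CLDN8, 1 of CLDN18 and 2 of CLDN23. In the HCT116 pair 0 of the 15 rose or fell, where 1.58% of 40507 measured probe sets did. Their median difference was 0.02, beside 0.01 over all, with 8 above 0 and 7 below. In the LS174T pair 3 of the 15 fell, from 2 genes, and 0 rose, where 1.0% of 40584 measured probe sets fell and 0.493% rose. The median was -0.30, beside -0.00 over all, with 4 above 0 and 11 below. CLDN2 and CLDN1 were known as lower in this pair when the claudins were chosen, so the count describes them and does not test the family.

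**Figure D3:**
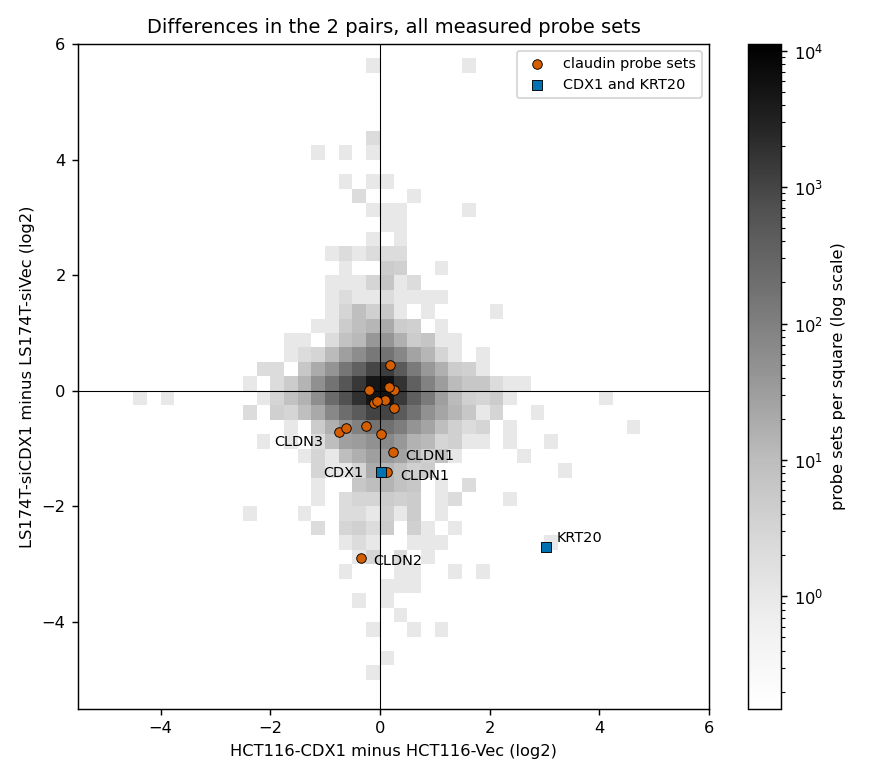
Each square counts probe sets by their difference in the HCT116 pair (horizontal, log2) and in the LS174T pair (vertical, log2), for the 39092 measured in both, on a logarithmic grey scale. Squares centred at -5.875 in LS174T lie below the drawn range and are misplaced near the upper edge, where they do not stand for rises. CLDN1 and CLDN2 lie below the centre with CDX1, whose HCT116 difference is 0.02, while KRT20 lies far to the right at 3.03 and -2.70, and CLDN3 is below and left of the centre.

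The 2 vector arrays were set against each other to compare the lines themselves. Of the 15 measured claudin probe sets, 6 were higher in LS174T-siVec by 2-fold or more and 0 were lower, from 4 genes, where 5.87% of 41097 measured probe sets were higher and 5.97% lower. CLDN2 was higher by 3.28 (9.68-fold), CLDN3 by 2.84 and 2.51 (7.16-fold and 5.68-fold), CLDN1 by 2.27 and 1.72, and CLDN4 by 1.05 by 201428_at. CLDN4 differed by 0.04 by 1569421_at, so that its probe sets did not give the same answer. CLDN7 was 0.94 higher, just under 2-fold. CLDN18 and CLDN23 lay slightly below 0, at -0.10 to -0.38 for the measured probe sets. This comparison shares the LS174T-siVec and HCT116-Vec arrays with the pairs above, so a high reading on the LS174T-siVec array enters both.

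The lines were also compared over all 4 arrays with limma, which fits the line and the CDX1 label together for 41999 probe sets and leaves 1 residual degree of freedom. Of 15 claudin probe sets, 5 were higher in LS174T at an adjusted p under 0.05 and 0 lower, beside 7.82% and 7.80% of all probe sets. CLDN3 was higher by 2.86 ± 0.36 and 2.49 ± 0.32 (SE, 2 arrays per line; adjusted p = 0.0118 and 0.0119). CLDN1 was higher by 1.49 ± 0.33 and 1.06 ± 0.24 (limma adjusted p = 0.0456 and 0.0484), and CLDN7 by 0.65 ± 0.14 (adjusted p = 0.0454). CLDN2 was higher by 2.00 ± 0.76 and did not pass (limma adjusted p = 0.161). Its LS174T-siCDX1 reading lay 0.39 above HCT116-Vec. CLDN4 by 201428_at was 0.66 ± 0.22 higher (limma adjusted p = 0.121). The calls for CLDN1 and CLDN7 lay close to the threshold: with 1 probe set per gene 1 claudin passed, and with no term for the CDX1 label 2 probe sets did. In these settings 2778 of 17281 genes and 7486 of 41999 probe sets passed in all. The 2 arrays of a line are differently modified cells of that line and not replicates. The 1 residual degree of freedom is the disagreement between the 2 pairs. Each SE of this fit, moderated over all probe sets, thus does not measure replicate spread.

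**Figure D4:**
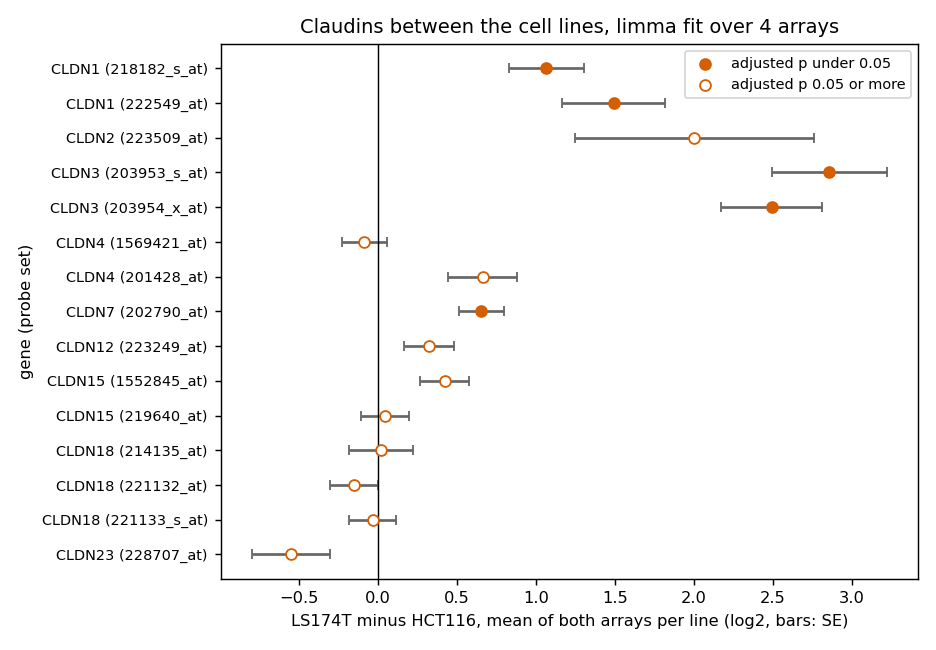
Difference between LS174T and HCT116 in log2 for the 15 claudin probe sets in the limma fit, with bars of 1 SE; filled symbols have an adjusted p under 0.05. CLDN3 lies farthest to the right at 2.86 and 2.49, and CLDN2 at 2.00 has the widest bar, 0.76.

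The same fit gave the difference by the CDX1 label over both lines, as the arrays named for higher CDX1 minus those named for lower. No claudin probe set passed: 0 of 15 had an adjusted p under 0.05 in limma and 1 of 15 an unadjusted p under 0.05, where 0.00% of the 41999 passed and 1430 had an unadjusted p under 0.05. CLDN1 was 0.77 ± 0.33 and 0.65 ± 0.24 higher by the label (SE; limma unadjusted p = 0.0666 and 0.0429, adjusted p above 0.99 for both). CLDN2 was 1.27 ± 0.76 higher (limma unadjusted p = 0.157), a mean of -0.35 in HCT116 and 2.89 in LS174T. CLDN3 was at -0.02 ± 0.36 and 0.01 ± 0.32, where its differences of opposite sign cancelled.

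The genes nearest in pattern to CLDN1 and CLDN2 were sought over the 4 arrays, as the smallest distance between levels after each gene's mean was removed. Each gene was read from its brightest probe set, which for CLDN1 is 222549_at. Of 17279 other genes, the nearest to CLDN1 by that probe set was CDX1 itself, at a distance of 0.09. LRRC31 followed at 0.16 and the cytokine gene TNFSF15 at 0.22. CDX1 and CLDN1 differed by 2.24 and 2.27 between the vector arrays, by -1.40 and -1.41 in the LS174T pair, and by 0.02 and 0.13 in the HCT116 pair. The other CLDN1 probe set, 218182_s_at, lay less close to CDX1, with 1.72, -1.07 and 0.24 in the same order. The nearest to CLDN2 were MTTP, which loads lipid onto apoB, at 0.42, the adhesion gene CEACAM6 at 0.53 and CHIC1 at 0.55. Each of these was high in LS174T-siVec alone, and MTTP went from 8.14 there to 4.96 in LS174T-siCDX1. With 4 arrays, 2 lines and 1 array a group, such likeness is a description and has no test.

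**Figure D5:**
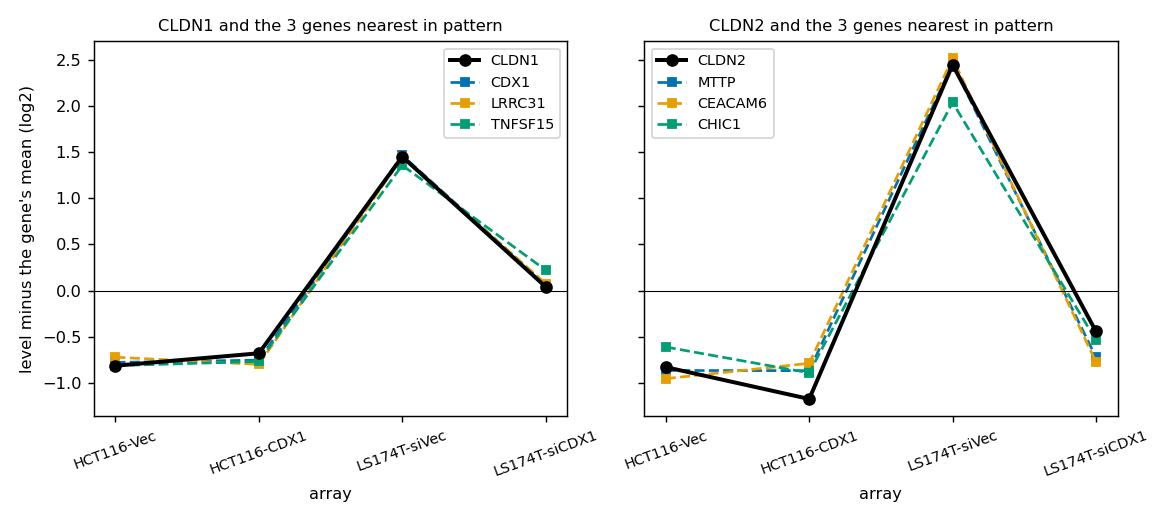
Level minus the gene's own mean (log2) on each array for CLDN1, left, and CLDN2, right, with the 3 genes nearest in pattern to each; lines join the arrays only to guide the eye. The CDX1 line is almost covered by that of CLDN1, drawn from its brighter probe set 222549_at, and CLDN2 and its neighbours share a peak on the LS174T-siVec array.

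Other genes of the tight junction moved less than CLDN1 and CLDN2 in LS174T-siCDX1. Of 10 further claudins with a probe set of their own, out of 14 listed, 0 changed in any of the 3 comparisons, and their differences lay between -0.22 and 0.27. Of 21 measured scaffold and regulator genes, 0 rose or fell in either pair, with medians of 0.02 in HCT116 and -0.13 in LS174T, where 18 lay below 0; the medians over all genes were -0.01 and -0.01. At the level of genes, 1.89% of 16914 measured genes changed in HCT116, 1.85% of 16896 in LS174T, and 13.4% of 17043 between the vector arrays. The scaffold gene TJP3, chosen here with its value known, was the lowest, at -0.74. Of the transmembrane genes other than claudins, 0 of 11 changed in LS174T, with 10 below 0 and a median of -0.15. The tetraspan gene OCLN, occludin, differed by -0.25. In the HCT116 pair 1 of 13 rose: CLMP, an adhesion molecule of epithelial junctions, went from 5.96 to 9.27, while its LS174T levels were 5.92 and 5.87. The median of those 13 was 0.16.

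Among 20 transcription factor genes known to act on claudins or on epithelial junctions, 1 of 18 measured fell in LS174T, CDX1, and 0 rose. In the HCT116 pair KLF5 rose by 2.05 and EHF fell by 1.86 among 20. Between the vector arrays 6 of 20 were higher in LS174T-siVec and 3 lower, where 1028 of 17043 measured genes were higher and 1250 lower. CDX2, the close relative of CDX1, read 7.52 in HCT116-Vec, 7.62 on the array labelled HCT116-CDX1, 9.49 in LS174T-siVec and 9.14 in LS174T-siCDX1 by 1 of its probe sets. By the other, CDX2 read 4.92, 5.48, 7.62 and 6.89 in the same order, a difference of -0.74 in LS174T against -0.35 by the first probe set. Both CDX2 probe sets were higher in LS174T-siVec than in HCT116-Vec, by 1.97 and 2.70. VDR, the vitamin D receptor, under which CLDN2 is known to be induced, was chosen here with its values known. VDR read 10.49 in LS174T-siVec against 9.56 in LS174T-siCDX1, and 8.83 in HCT116-Vec against 8.56 on the array labelled HCT116-CDX1. The part of CDX2 or VDR in the claudin levels was not tested.

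No measured marker of endothelium, fibroblasts or leukocytes changed beside the claudins in LS174T: 0 of 4 measured endothelial, 0 of 6 fibroblast and 0 of 3 leukocyte genes changed. Median levels were taken over the 6, 8 and 4 listed genes with a probe set of their own, including those under 6. From LS174T-siVec to LS174T-siCDX1 these medians went from 6.99 to 7.04, from 6.66 to 6.71 and from 6.71 to 6.76. Some epithelial markers did change: 2 of 7 epithelial genes fell in LS174T-siCDX1, KRT19 by 1.69 and KRT8 by 1.49, and 0 of 5 enterocyte genes passed 2-fold, all 5 lying below 0. MUC6, on the gastric list, fell by 1.05. In the HCT116 pair 0 of 7 epithelial genes changed, and CDH17, the liver-intestine cadherin, rose by 1.31 among 5 enterocyte genes.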

How the data were processed

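Gene expression was measured in 4 groups of 1 array each. Per the labels' protocols, biotinylated cRNA was synthesised from 2 µg of RNA purified on RNeasy columns. Per the submitters' processing notes the authors used RMA; the deposited values are log2 expression (3.20 to 14.6), taken unchanged. The RMA version and the arrays normalised together are not given in the sources used here.

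Gene names came from the platform annotation (41097 with 1 gene, 1801 with several, 11777 with none listed), with symbols checked through the gene identifier against RefSeq of GRCh38.p14 (41043 matched, 0 changed). Upstream sequences came from a RefSeq table of that build. The array values themselves have no coordinates. In lists, the brightest probe set by mean stands for a gene.

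Differences between 2 arrays were called at 1 or more on the log2 scale, with the brighter array at 6 or more. The fit over 4 arrays used limma 3.58.1 in R 4.3.3 with Benjamini-Hochberg adjustment over all 41999 probe sets whose brightest array was at 6 or more. Python 3.11.15 with pandas 2.3.3, numpy 2.4.6, statsmodels 0.14.6 and matplotlib 3.10.9 did the rest. Both rules were tested on simulated data. The alternatives were other floors, folds, scalings, probe set choices and limma settings. Named genes were all 10 claudins, CDX1 and KRT20, up to 5 members per list with the largest change of 2-fold or more within a pair, and the 3 genes nearest to each claudin that changed. EPCAM, LUM, COL1A1, GKN2, TFF2, OCLN, TJP3, CDX2 and VDR were named outside this rule, with their values known. The claudins and lists were chosen with earlier results of these data known.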

Additional observations from a re-analysis of the deposited data

Results flagged for a closer look

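CLDN3 differed in opposite directions in the 2 lines when the arrays named for higher CDX1 were set against those named for lower. By 203953_s_at the difference was -0.75 in HCT116 and 0.71 in LS174T, and by 203954_x_at it was -0.61 and 0.64. All 4 values were past 1.5-fold and under 2-fold. With 1 array per group the difference between the lines was not tested. No group has enough arrays for a search for outlying samples.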

How the results depend on the processing

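Changing the scaling (quantile normalization, equal medians, a loess removed) or the floor left the call of each of the 19 claudin probe sets in each of the 3 comparisons of arrays as it was. The threshold moved the counts. In HCT116 0 claudin probe sets became 2 at 1.5-fold, both of CLDN3, beside 8.3% of all measured probe sets. In LS174T 3 became 7 at 1.5-fold, with CLDN3, CLDN4 and CLDN23 added, beside 4.31% of all measured probe sets. At 3-fold 1 was left there, CLDN2, beside 0.606% of all. Without probe sets ending in _x_at or _s_at 2 were left there. Between the vector arrays 6 became 3 without probe sets ending in _x_at or _s_at, which removes both of CLDN3 and 218182_s_at of CLDN1. The shares over all probe sets were not taken again without those endings. At 3-fold 5 were left between the vector arrays, beside 5.44% of all. With probe sets averaged per gene 3 genes were left, beside 11.5% of all genes. In the limma fit of the lines 5 passed, beside 6562 of 41999 probe sets in all. With 1 probe set per gene the 5 became 1, beside 2778 of 17281 genes. With a floor of 7 they became 3, beside 5753 of 31343 probe sets. With no second term they became 2, beside 7486 of 41999. For the CDX1 label 0 claudins passed in any limma setting tried, with 0 to 2 at an unadjusted p under 0.05. The fit for the CDX1 label already holds the line as a term. With 1 array per group, none could be left out of a pair. Without detection calls, how far a reading stands above background is not known.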
